A study of Danio rerio with 2 samples.

Results

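Translation initiation factors, the eIF proteins, and the eIF2 kinases that control one of them were described in the heads of rbm24a mutant and wildtype zebrafish embryos. Members were all annotated genes of the deposited table whose gene symbol starts with eif and a digit from 1 to 6, in capitals or not. This gave 65 genes of 51544 features, in 11 groups of factors and 1 group of kinases (eif2ak1, eif2ak2 and EIF2AK3). Symbols are written as the names table gives them, many in the mammalian form. Where 6 symbols were each shared by a pair of genes, the zebrafish name in brackets is the RefSeq gene of the same stem with the nearest genomic span. The study compared 1 library of rbm24a-/- heads with 1 library of wildtype heads. In the mutant line a TALEN pair removed 8 bp from exon 1 of rbm24a, and the wildtype embryos are listed with no genotype change. All were of the AB strain, and the head region in front of the otic vesicle was taken at 33 hours post fertilisation. Each group had 1 library and no replicate, so no difference below has been tested, and 95% intervals cover counting error only. The number of embryos behind each library is not given in the sources used here.

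Translation of most messenger RNAs begins when the cap-binding complex eIF4F, made of eIF4E, eIF4G and the helicase eIF4A, recruits a small ribosomal subunit that carries eIF3, eIF1, eIF1A and eIF2 with the initiator tRNA. The eIF2 kinases phosphorylate the alpha subunit of eIF2 under stress, which blocks its recycling by eIF2B and slows general translation. The eIF4E-binding proteins hold eIF4E away from eIF4G when mTOR activity is low. The protein Rbm24a binds RNA, and the title of the series names translation and the lens.

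Reads assigned to features came to 16667612 for mutant heads and 14148577 for wildtype heads. Levels are given as CPM, reads scaled to a common library total, and between genes as the deposited RPKM, which is also per kilobase. The targeted gene rbm24a (ENSDARG00000102995, named by its span) had 121 reads in mutant heads and 224 in wildtype heads, 2.18-fold lower (interval 1.74 to 2.74). The other RBM24 gene (ENSDARG00000031809), nearest in span to rbm24b, had 13 and 31 reads, 2.81-fold lower (interval 1.43 to 5.85). The level of the rbm24a message does not measure loss of the protein. Head markers were present, with 538 and 454 CPM in mutant and wildtype heads summed over forebrain and midbrain markers (9 of 9 with log2 ratios above 0), while markers of the trunk and of the hindbrain behind the otic vesicle summed to 0.120 and 0.212 CPM. Eye markers summed to 443 CPM in mutant heads and 469.7 CPM in wildtype heads (5 of 6 below 0). Macrophage and neutrophil markers, 3 matched of 6 listed, summed to 30.5 and 47.6 CPM (3 of 3 below 0). Most of this difference was lyz, with 365 mutant and 535 wildtype reads. SPI1 had 27 reads in each library and LCP1 116 and 111, both with ratio intervals that include 1. Of the red cell markers, 8 of 8 measured were lower by at least 2-fold in mutant heads (182 against 979 CPM in sum). Of the lens fibre markers 8 of 9 were (239.5 against 1277 CPM). Among all features averaging at least 1 CPM, 2.82% were lower by that much and 49.8% had log2 ratios above 0. The red cell genes hbae1.1, gata1a and klf1 and the lens gene BFSP2 reached a mean of 1 CPM only through the wildtype library. A second SLC4A1 gene, below this mean, had 5 reads in each library. Heart markers at low level summed to 16.0 CPM in mutant heads and 1.41 CPM in wildtype heads over 7 genes, and MYL7 had 0 wildtype reads. The 3 measured were higher in mutant heads, but each reached a mean of 1 CPM only through that library. Below this limit, a TNNT2 gene had 31 mutant and 0 wildtype reads, a second myh6 gene 0 and 4, and nppa 3 and 3. In whole heads, fewer cells of a type and less RNA per cell cannot be told apart.

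The initiation factor messages as a group were at nearly the same level in both libraries. Of the 65 members, 62 averaged at least 1 CPM and were measured, 60 factors and 2 kinases. The other three were eif2ak1, EIF4E1B and EIF3B (eif3bb). The factors without the kinases summed to 16417 CPM in mutant heads and 16786 CPM in wildtype heads, a ratio of 0.978 (interval 0.973 to 0.983). On the log2 scale this was -0.03, but 0.00044 with DESeq2 size factors. They made up 1.64% of mutant reads and 1.68% of wildtype reads. On the scale log2((mutant CPM + 1)/(wildtype CPM + 1)), which understates differences of genes at low levels, genes at 1 and above or -1 and below were called past 2-fold.

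Among the 60 factors 0 were lower and 0 higher by at least 2-fold, and the members past it came to 1 of 62, the kinase gene eif2ak2. Over all 18094 features averaging at least 1 CPM, 2.82% were lower and 2.22% were higher, 5.05% in either direction. Most factors are expressed well above the typical feature, where counting error is small. Of features averaging at least 50 CPM, a level chosen after the data were seen, 0.988% were lower and 0.349% higher. The members' share of 1.61% stands beside these and nothing is read from it.

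The factors had log2 ratios from -0.80 to 0.48, with a median of -0.05 and 22 of 60 above 0. The median over all measured features was -0.001. Features at higher levels were themselves shifted: at 50 CPM and above their median was -0.02 with 44.6% above 0, against 37.2% of the 43 factors at that level. Of the 60 factors, 50 lay within 0.25 on the log2 scale. Among those with a mean of at least 50 CPM the number was 38 of 43 (88.4%), against 74.9% of all 3442 features past that limit. These sets are not at equal level, with a median of 262 CPM for the factors and 97.6 CPM for the features. Counting error is therefore smaller for the factors. The median absolute log2 ratio was 0.13 for those 43 factors and 0.14 for the 3442 features. Past 1.5-fold there were 2 members, eif2ak2 and the helicase gene EIF4A2, both lower in mutant heads, where the share of all measured features was 7.88% lower and 6.95% higher.

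**Figure D1:**
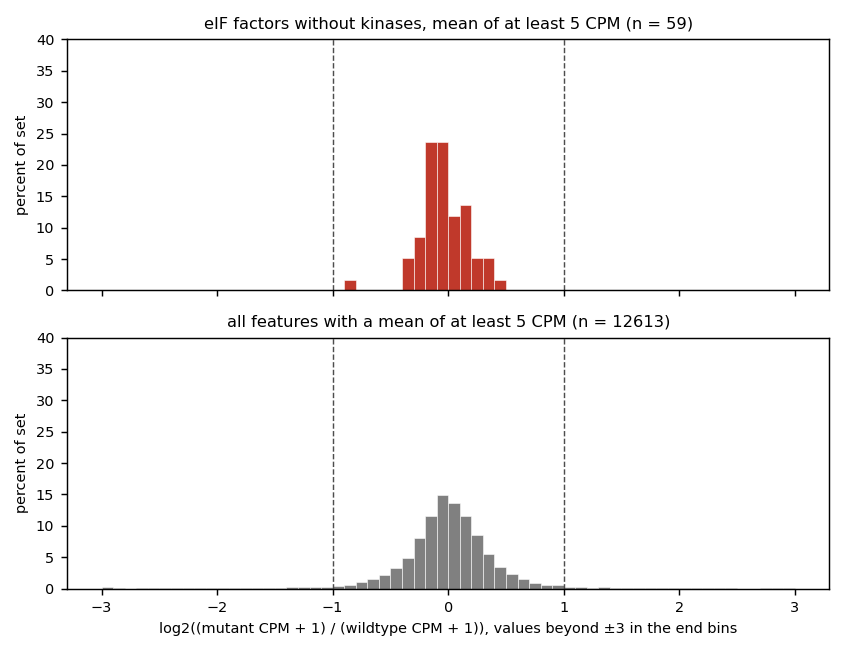
Distribution of log2 ratios, mutant over wildtype with a pseudocount of 1 CPM, for 59 initiation factors without the kinases (upper panel) and 12613 features (lower panel), all with a mean of at least 5 CPM. Bars give the percent of each set in bins of 0.1 and dashed lines mark 2-fold, and the factors lie between -0.80 and 0.48.

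The eIF2 kinase genes were expressed at low levels, and 2 were measured, with log2 ratios of -2.22 for eif2ak2 and 0.21 for EIF2AK3. Only the wildtype library brought eif2ak2 to a mean of 1 CPM. eif2ak2 (ENSDARG00000068729) encodes PKR, which in mammals is activated by double-stranded RNA. It had 11 reads in mutant heads and 95 in wildtype heads, or 0.660 and 6.71 CPM. This was 10.2-fold lower in mutant heads (interval 5.44 to 21.1), a log2 ratio of -2.22. Of features with a mean between 1 and 5 CPM, where eif2ak2 lies with 3.69 CPM, 4.89% were lower by at least 2-fold. This share is for the 2-fold limit with the pseudocount, and the share at a ratio as low as that of eif2ak2 was not counted. The deposited RPKM of eif2ak2 was 0.07 in mutant heads and 0.69 in wildtype heads, below that of EIF2AK3 in both. Where a mean of 5 CPM was required, or RPKM replaced CPM, eif2ak2 was no longer measured and the count of members past 2-fold was 0.

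eif2ak1 (ENSDARG00000093182) encodes HRI, the haem-regulated kinase that matches globin synthesis to haem in red cells. It had 1 read in mutant heads and 9 in wildtype heads, a 10.6-fold difference with an interval of 1.47 to 465. Its mean of 0.348 CPM lay below the limit for measured genes. The 9 red cell marker genes matched were 5.37-fold lower in sum, and the globin gene hbae3 had 84.2 CPM in mutant heads and 546 CPM in wildtype heads. Their part in the eif2ak1 and eif2ak2 values was not tested. EIF2AK3 (ENSDARG00000062139), the endoplasmic reticulum kinase PERK, had 334 and 244 reads, or 20.04 and 17.2 CPM, in mutant and wildtype heads. Its ratio of 1.16 had an interval of 0.982 to 1.38 that includes 1. The fourth kinase known in vertebrates, eif2ak4 or GCN2, is not analysed here.

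Lists of genes related to the kinases or to interferon were described. In the list of interferon response genes, among which mammalian PKR also counts, 9 of 22 matched rows were measured, 2 had 0 reads in both libraries, and with the pseudocount 0 were lower and 0 higher by at least 2-fold. Its sum was 129.95 CPM in mutant heads and 139 CPM in wildtype heads. Its largest absolute log2 ratios were 0.93 for irf9, -0.58 for IRF7, -0.55 for irf1b and -0.35 for gbp1. irf9, a partner of STAT factors, had 112 mutant and 43 wildtype reads, and without the pseudocount it was 2.21-fold higher (interval 1.54 to 3.22). The fish kinase gene pkz had 0 reads in both libraries, which allows up to 0.180 CPM in mutant heads and 0.212 CPM in wildtype heads.

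**Figure D2:**
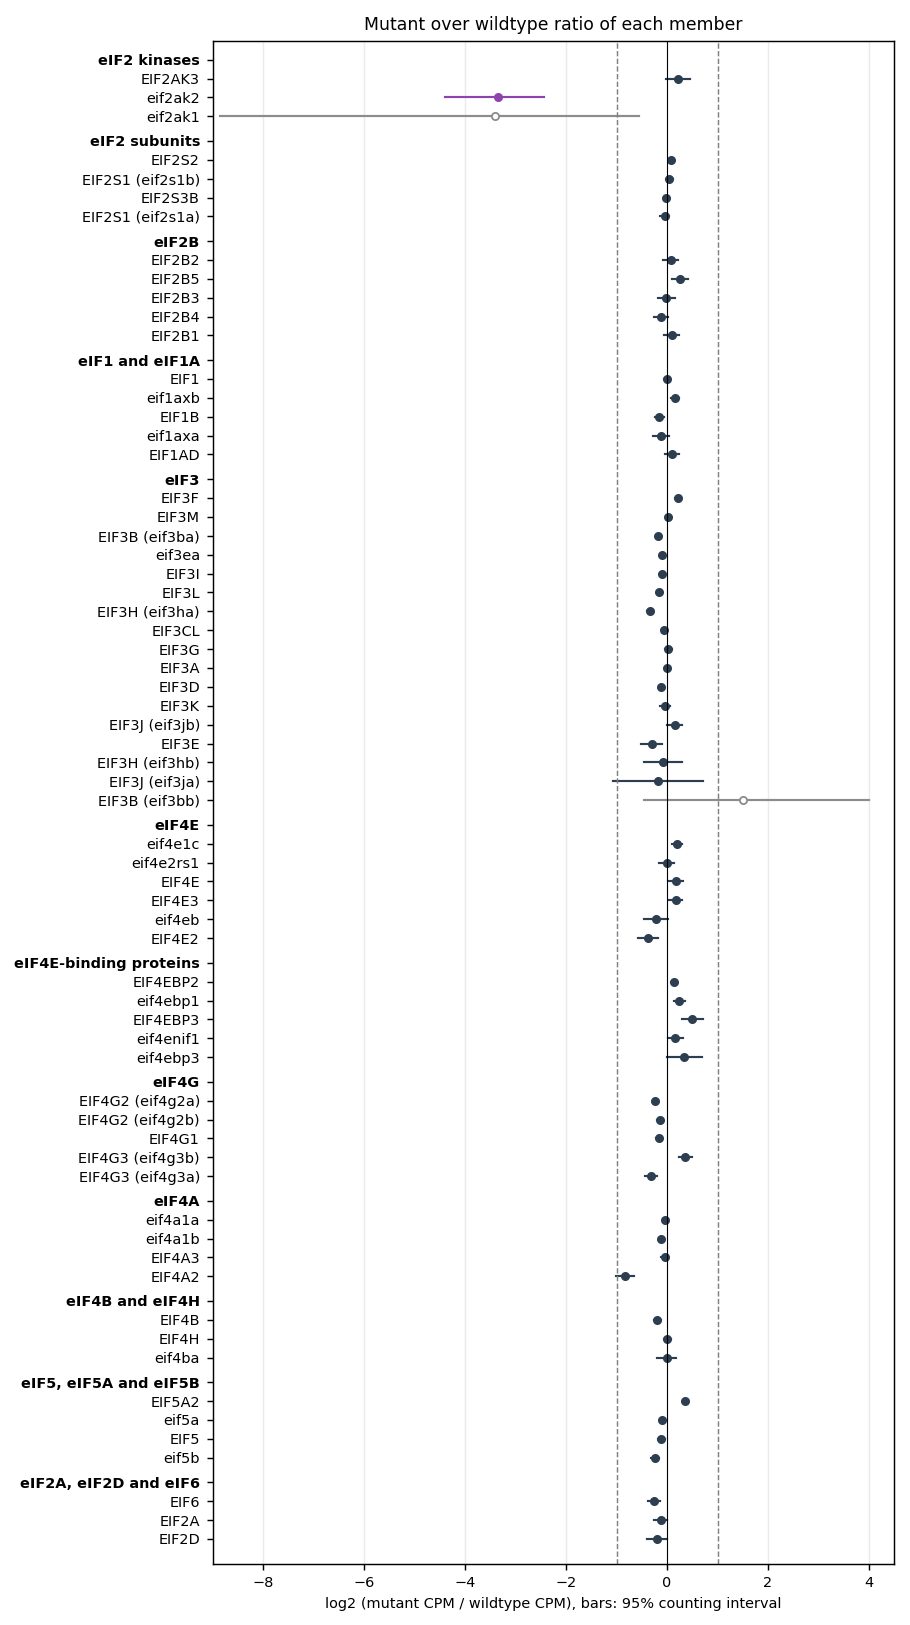
Ratio of mutant to wildtype CPM for each member with reads in both libraries, on a log2 scale without a pseudocount, by group of factors. Bars are 95% counting intervals, dashed lines mark 2-fold, open circles are genes with a mean under 1 CPM, and eif2ak2 (purple) is the measured member past 2-fold.

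The subunits of eIF2, the target of the kinases, had log2 ratios from -0.05 to 0.08. The alpha subunit, which carries the phosphorylated serine, has a pair of genes. EIF2S1 (eif2s1b), ENSDARG00000052178, had 296 CPM in mutant heads and 287 CPM in wildtype heads. EIF2S1 (eif2s1a), ENSDARG00000005827, had 135 and 139 CPM. For both genes the interval of the ratio includes 1 (0.991 to 1.08 for eif2s1b and 0.911 to 1.03 for eif2s1a). The beta subunit gene EIF2S2 had 387 and 366 CPM and the gamma subunit gene EIF2S3B, which holds GTP and the initiator tRNA, 572 and 582 CPM. The summed ratio of the complex was 1.01 (interval 0.993 to 1.03).

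The exchange factor eIF2B, which reloads eIF2 with GTP, was expressed below its substrate. Its 5 subunit genes had RPKM values of 11.8 to 30.5 in mutant heads and 11.1 to 29.0 in wildtype heads, against 88.6 to 300.1 and 91.5 to 283 for eIF2. EIF2B5, the catalytic epsilon subunit, had the highest log2 ratio of this complex, 0.24, with 47.7 CPM in mutant heads and 40.1 CPM in wildtype heads (ratio interval 1.07 to 1.33). EIF2B4, the delta subunit, had the highest mean and the lowest ratio, with 57.4 CPM in mutant heads and 62.6 CPM in wildtype heads (log2 ratio -0.12).

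Regulators and targets of the integrated stress response, the programme that follows eIF2 phosphorylation, had a median log2 ratio of 0.10 over 29 measured genes. With the pseudocount 0 were lower and 0 higher by at least 2-fold, and 18 lay above 0, where 49.8% of all measured features did. Of the 31 symbols listed, 1 (atf4a) was not matched. The largest absolute values were those of nupr1b (0.99) and nupr1a (0.65), stress-induced chromatin proteins, and of DDIT4 (-0.58) and slc7a11 (-0.51). DDIT4 is an inhibitor of mTOR and slc7a11 a cystine transporter. nupr1b had 47 reads in mutant heads and 13 in wildtype heads, and without the pseudocount it was 3.07-fold higher (interval 1.63 to 6.18). With 2.82 CPM in mutant heads and 0.919 CPM in wildtype heads, it reached a mean of 1 CPM only through the mutant library.

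The small scanning factors eIF1 and eIF1A, which hold the ribosome open until a start codon is found, had log2 ratios from -0.15 to 0.16 over EIF1, EIF1B, eif1axa and eif1axb. EIF1 had the highest mean, with 374 CPM in each library. eif1axb had the highest ratio, with 221 CPM in mutant heads and 199 CPM in wildtype heads. EIF1B had the lowest, with 142 and 157 CPM. EIF1AD, which carries an eIF1A-like domain but is no scanning factor, was grouped with them by its symbol and had 57.1 and 53.2 CPM.

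The large scaffold eIF3 made up the largest share of the initiation factor reads. It summed to 6418 CPM in mutant heads and 6741 CPM in wildtype heads over 17 genes, a ratio of 0.952 (interval 0.944 to 0.961). None of its 16 measured genes was past 2-fold. Of these, 12 had log2 ratios below 0, or 11 with DESeq2 size factors, and the median was -0.08. Of all measured features 49.8% lay above 0, and of those at 50 CPM and above 44.6%. Without the eIF3 paralogs averaging under 30 CPM, 9 of 13 genes lay below 0, with a median of -0.06.

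EIF3F had the highest RPKM of all members in both libraries (563 in the mutant, 487 in the wildtype). It also had the highest log2 ratio of eIF3, 0.21, with 503 and 435 CPM. EIF3A, the core subunit on which the complex assembles, had the highest mean CPM, with 982 in mutant heads and 987 in wildtype heads. EIF3H (eif3ha), ENSDARG00000102452, had the lowest ratio with 213 CPM in mutant heads and 269 CPM in wildtype heads, 1.26-fold lower (interval 1.21 to 1.32). EIF3B (eif3ba), the RNA-binding core subunit, had 903 and 1030.4 CPM, 1.141-fold lower (interval 1.11 to 1.17). The subunit genes eif3ea and EIF3J (eif3jb) had log2 ratios of -0.10 and 0.14. EIF3J (eif3jb), a loosely bound subunit, had 54.1 CPM in mutant heads and 48.8 CPM in wildtype heads, and its RPKM of 22.7 and 20.6 was below that of eif3ea, at 259 and 277. The subunits of this complex therefore differed more among themselves in level per kilobase than any of them differed between libraries. The kilobase lengths behind the RPKM of measured members ran from 0.893 to 11.4, and levels between genes depend on these lengths.

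**Figure D3:**
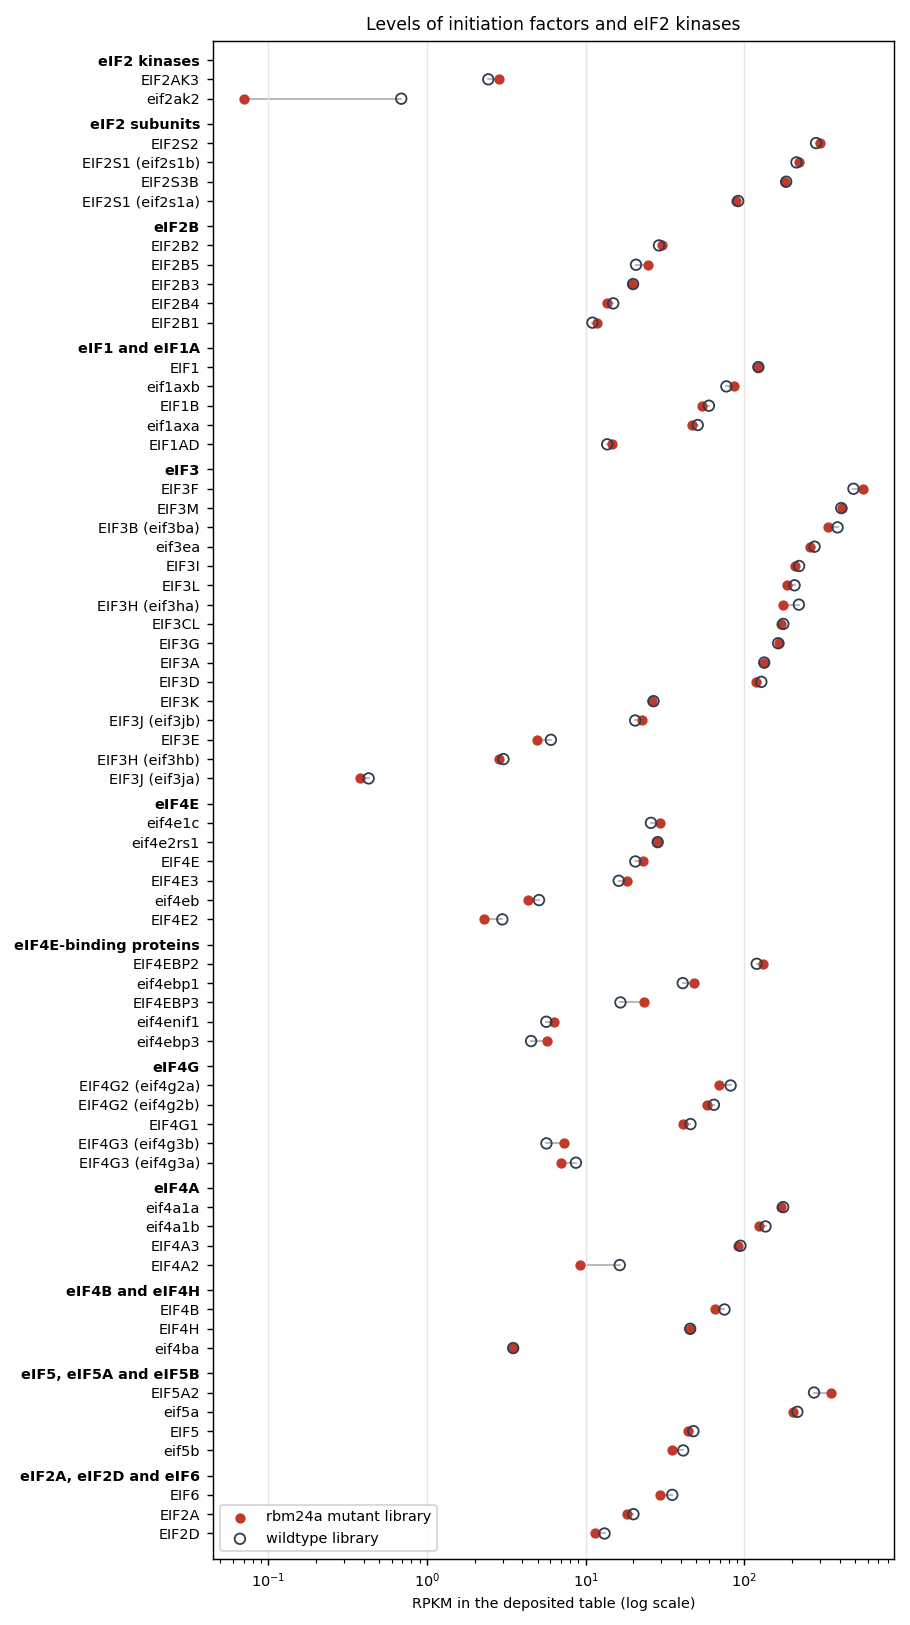
Deposited RPKM of the 62 measured members in the rbm24a mutant library (filled red) and the wildtype library (open circles), on a log axis and by group of factors. Levels span from 0.07 for eif2ak2 to 563 for EIF3F in mutant heads, while the circles of a gene mostly overlap.

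The gene groups named for parts of the cap-binding complex, some members of which act outside it, were uneven in direction. The 6 measured eIF4E genes had a median log2 ratio of 0.08 and a summed ratio of 1.06 (interval 1.018 to 1.101). eif4e1c, a form of eIF4E found in fish, had the highest mean and the highest ratio of this group, with 135 CPM in mutant heads and 118 CPM in wildtype heads. EIF4E2, a relative that binds the cap and represses translation, had the lowest ratio, with 25.9 and 33.6 CPM, a ratio of 0.769 (interval 0.673 to 0.878). EIF4E1B, which in zebrafish is known from gonads and muscle, had 1 read in mutant heads and 0 in wildtype heads.

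The 5 genes of eIF4E-binding proteins all had log2 ratios above 0, where 49.8% of all measured features did. The other 3 scalings shift all genes by nearly the same small amount, so they could not change these signs. None of them was past 2-fold. Their summed level was 561 CPM in mutant heads and 496 CPM in wildtype heads, a ratio of 1.13 (interval 1.095 to 1.165). EIF4EBP2 had the highest mean at 373 and 340.2 CPM. EIF4EBP3, whose span matches RefSeq's eif4ebp3l, had the highest log2 ratio of any factor, 0.48, with 31.1 CPM in mutant heads and 21.98 CPM in wildtype heads (1.42-fold higher, interval 1.23 to 1.64). eif4ebp1 had 92.7 and 78.3 CPM, and eif4ebp3 had 10.8 and 8.55 CPM, with a ratio interval of 0.997 to 1.603 that includes 1. eif4enif1, the transporter that carries eIF4E into the nucleus and to P-bodies, had 52.8 and 47.2 CPM.

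The eIF4G gene group was lower in sum, with 1326 CPM in mutant heads and 1481 CPM in wildtype heads, a ratio of 0.896 (interval 0.879 to 0.913). Of its 5 genes 4 had log2 ratios below 0, where 49.8% of all measured features lay above 0, and none was past 2-fold. EIF4G2 (eif4g2b), ENSDARG00000057167, a relative that lacks the eIF4E-binding part, had the highest mean with 431 and 478 CPM. Its paralog EIF4G2 (eif4g2a) had 337 and 396 CPM, so much of the group's sum comes from this relative. EIF4G1 had 410 and 461 CPM. The pair of EIF4G3 genes had ratios of opposite direction. EIF4G3 (eif4g3b), ENSDARG00000074331, had 82.9 CPM in mutant heads and 64.4 CPM in wildtype heads, 1.29-fold higher (interval 1.18 to 1.40). EIF4G3 (eif4g3a), ENSDARG00000077215, had 65.9 and 82.2 CPM, 1.25-fold lower (interval 1.15 to 1.36).

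All 4 eIF4A helicase genes had log2 ratios below 0, where 49.8% of all measured features lay above 0, and 0 were past 2-fold. The other 3 scalings, which shift all genes by nearly the same small amount, left these signs unchanged. eif4a1a had the highest mean at 857 CPM in mutant heads and 888 CPM in wildtype heads, and EIF4A3, a helicase of the exon junction complex rather than of the cap, had the ratio nearest to 0 at -0.05. EIF4A2 (ENSDARG00000016477), an isoform known in mammals for its high level in brain, stood apart from the other factors. It had 410 reads in mutant heads and 618 in wildtype heads, or 24.6 and 43.7 CPM, 1.78-fold lower (interval 1.56 to 2.02). eif4a1b, by comparison, had 532 CPM in mutant heads and 581 CPM in wildtype heads. The helicase partners eIF4B and eIF4H had a summed ratio of 0.932 (interval 0.903 to 0.962), with EIF4B at 244 and 279.6 CPM and EIF4H at 211.0 and 210.8 CPM in mutant and wildtype heads.

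Factors of subunit joining and of elongation were led by the eIF5A genes. eIF5A carries the modified residue hypusine and helps ribosomes past stretches of proline. EIF5A2 (ENSDARG00000056186) had 22864 reads in mutant heads and 15247 in wildtype heads, or 1372 and 1078 CPM, 1.27-fold higher (interval 1.25 to 1.30). It had the highest CPM of all members in mutant heads, and its RPKM rank among members was 3 in mutant heads and 6 in wildtype heads. eif5a, the member with the highest mean, had 1223 and 1305 CPM, a ratio of 0.937 (interval 0.918 to 0.956). eif5b, the GTPase that joins the ribosomal subunits, had 179.7 and 212 CPM, 1.18-fold lower (interval 1.12 to 1.24). EIF6, which keeps free large subunits from joining, had 69.0 and 82.9 CPM, 1.202-fold lower (interval 1.11 to 1.30). The deposited span of EIF6 is 4.27 times that of the nearest RefSeq gene, so reads of neighbours may be among these. EIF2A, a factor of alternative initiation, had 69.4 and 75.9 CPM. The same limit holds for eif4e2rs1 (14.8 times), EIF3K (10.5), EIF2A (1.89), eif4eb (1.89), eif4a1a (1.58) and EIF4E2 (1.57), each against its nearest RefSeq span.

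Pairs of paralogs showed which copy supplied the messages of a factor in the head. Of the eIF3 pairs, 1 copy supplied nearly all reads in both libraries. EIF3H (eif3hb) held 3.45% of its pair's reads in mutant heads (exact binomial interval 2.88% to 4.09%) and 2.90% in wildtype heads (2.402% to 3.479%). EIF3E, whose span matches eif3eb, held 2.88% (2.60% to 3.19%) beside eif3ea in mutant heads and 3.30% (2.98% to 3.64%) in wildtype heads. EIF3J (eif3ja) held 2.59% and 3.22%, with 24 and 23 reads. EIF3B (eif3bb), a pseudogene in RefSeq, had 10 reads in mutant heads and 3 in wildtype heads. Paralogs can share reads, so the values of such low copies are uncertain.

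In other pairs both copies were expressed. EIF2S1 (eif2s1a) held 31.3% of its pair in mutant heads (30.2% to 32.4%) and 32.7% in wildtype heads (31.5% to 33.9%). Shares differed most for EIF4G3, where the eif4g3b copy held 55.7% in mutant heads (53.7% to 57.7%) and 43.9% in wildtype heads (41.8% to 46.1%). EIF5A2 held 52.9% of the reads of EIF5A2 and eif5a together in mutant heads (52.4% to 53.3%) and 45.2% in wildtype heads (44.7% to 45.8%). The copy with more reads differed between the 2 libraries in both pairs. Per kilobase this was so for EIF4G3, where the RPKM of eif4g3b over eif4g3a was 1.04 in mutant heads and 0.652 in wildtype heads. EIF5A2 had more RPKM than eif5a in both, with ratios of 1.73 in mutant heads and 1.27 in wildtype heads. How much such shares vary between replicate libraries was not measured.

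**Figure D4:**
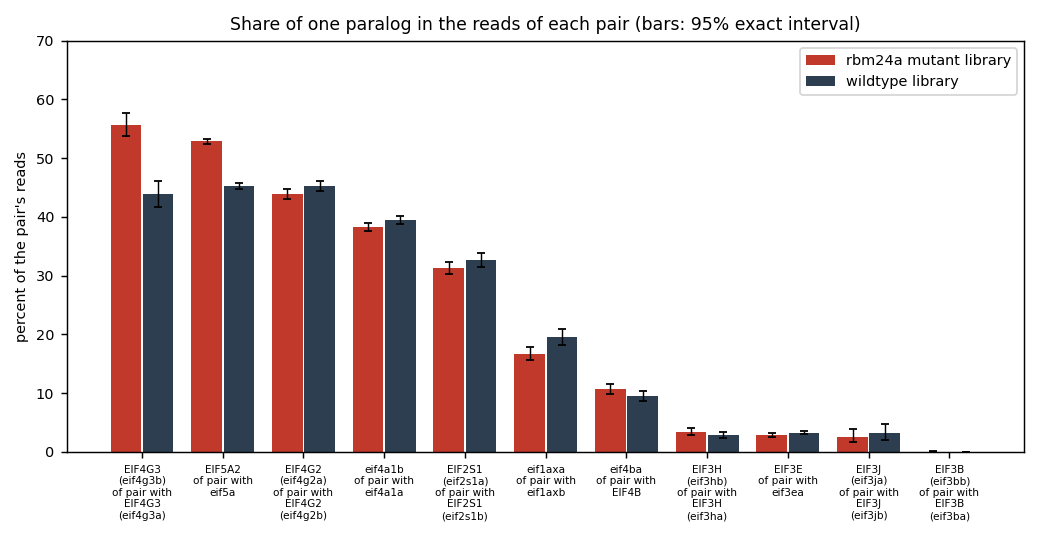
Share of one paralog in the reads of each of 11 pairs, in percent, in mutant heads (red) and the wildtype library (dark). Error bars are 95% exact binomial intervals, and the shares of eif4g3b (55.7% against 43.9%) and EIF5A2 (52.9% against 45.2%) differ most between the libraries.

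The gene rbm24a and EIF3H (eif3hb) are close neighbours in the RefSeq assembly GRCz12tu, with 7 protein-coding genes between them. EIF3H (eif3hb) had 127 reads in mutant heads and 114 in wildtype heads, a ratio of 0.946 (interval 0.729 to 1.23). The members EIF3E, EIF3I and EIF1 lie farther off on the same chromosome, with log2 ratios of -0.29, -0.10 and -0.001.

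Lists of genes around initiation were set beside all measured features. Without the pseudocount, as added after the data were seen, the interferon list had 1 of 9 measured genes past 2-fold. The stress response list had 1 of 29, the mTOR list 1 of 20 and the eIF4F partner list 1 of 28. Among all measured features 4.97% were lower and 3.98% higher, and nothing is read from these counts. The only measured initiation member past 2-fold was again eif2ak2. Elongation, termination and recycling factors had a median log2 ratio of -0.02 over 18 measured genes with 0 lower and 0 higher by at least 2-fold. Their largest absolute values were -0.61 for eef2a.1, a copy of elongation factor eEF2, 0.48 for TSFM, a mitochondrial elongation factor, 0.26 for PELO, which rescues stalled ribosomes, and -0.22 for gspt1, a release factor. mTOR complexes with the S6 and Mnk kinases (20 genes, 0 past 2-fold with the pseudocount) had a median of -0.05. One MKNK2 gene (ENSDARG00000011373), a kinase of eIF4E, was at -0.95 with 14 mutant and 36 wildtype reads. Without the pseudocount it was 3.03-fold lower (interval 1.59 to 6.08), and only the wildtype library brought it to a mean of 1 CPM. The other MKNK2 gene (ENSDARG00000015164), with far more reads (2353 mutant and 1787 wildtype), was at 0.16. One RICTOR gene was at 0.55 (266 mutant and 150 wildtype reads) and the other at -0.41 (345 and 393 reads). TSC2, an inhibitor of mTOR, was at 0.53. Partners of eIF4F, the poly(A) tail and scanning (28 genes, 0 past 2-fold with the pseudocount) had a median of -0.11. PABPC4, a poly(A)-binding protein, was at -0.89 with 88 mutant and 150 wildtype reads, 2.01-fold lower without the pseudocount (interval 1.53 to 2.64). BZW2 was at -0.58, a PDCD4 gene, for an inhibitor of eIF4A, at -0.51, and larp4aa at -0.47. That PDCD4 gene had 469 mutant and 574 wildtype reads, while its paralog pdcd4a, with 2685 and 2238 reads, was at 0.03.

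**Figure D5:**
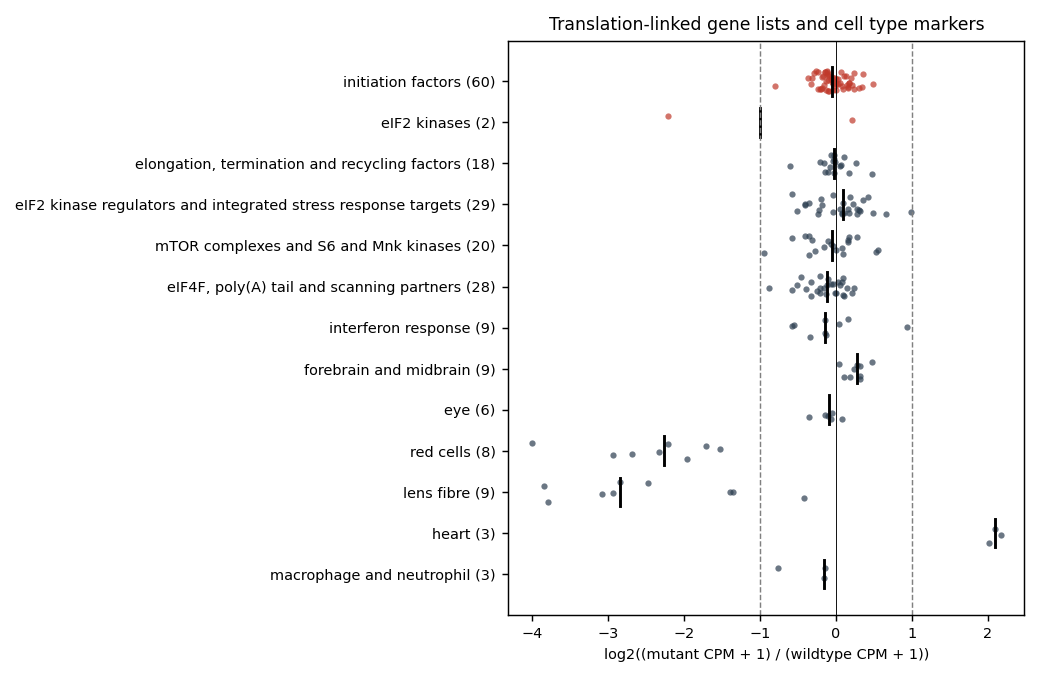
Log2 ratios, mutant over wildtype with a pseudocount of 1 CPM, of members (red), related gene lists and cell type markers (dark) with a mean of at least 1 CPM. Black bars are medians, numbers in brackets count genes and dashed lines mark 2-fold, and the related lists have medians between -0.14 and 0.10 while red cell, lens fibre and heart markers have medians beyond 2-fold. The 3 heart genes shown reached a mean of 1 CPM only through the mutant library. The red cell genes hbae1.1, gata1a and klf1 and the lens gene BFSP2 did so only through the wildtype library.

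Of 37 genes in the authors' deposited table, 33 were lower and 4 higher in mutant heads, and 0 of the 65 members are among them. The smallest absolute log2 fold in the authors' deposited table is 1.01, and each listed gene reaches at least 21.6 FPKM in one of the libraries. eif2ak2 lies below that level in both.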

How the data were processed

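Head tissue RNA was made into libraries with a TruSeq RNA kit and sequenced as paired 100 bp reads (HiSeq 2000), per the labels' protocols. The submitters' processing notes name build GRCz11 and, with no role, DESeq2, HTSeq 0.6.1, HISAT2 2.0.1, cutadapt and bcl2fastq 2.17.1.14. The annotation release and strandedness were not given in the sources used here, so overlapping or antisense genes cannot be told apart and paralogs may share reads. The labels' protocol speaks of more independent samples than the 2 libraries analysed here.

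The authors deposited raw read counts per feature, with no normalisation. The deposited RPKM values use the column sum and a length that was equal in both libraries (within 0.393% over 2414 features) and is not the deposited length column. The authors' deposited comparison table holds counts, FPKM, a fold or ratio and its log2 (wildtype over mutant), and p-values that rest on single libraries and are not printed.

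Counts were scaled to CPM over 51544 features. Ratios were log2((mutant CPM + 1)/(wildtype CPM + 1)), measured where both libraries averaged 1 CPM or more, with a 2-fold limit. Folds of single genes carry no pseudocount and have 95% Clopper-Pearson intervals, which cover counting error only. Reads copied by PCR are not independent molecules, so these intervals may be too narrow even for that. A count of 0 allows up to 3 counts. No p-value was computed from 1 library a group. Symbols were known for 26147 of 31571 annotated genes. RefSeq names (GRCz12tu) were assigned by span within 20% for 52 of 65 members, and 7 had spans over 1.5 times the nearest RefSeq span. Columns of other samples numbered 0.

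Members named by rule were the kinases, the eIF4E-binding proteins, those past 2-fold, the highest mean and the highest and lowest ratio of each group, and paralog pairs of eIF2, eIF2B and eIF3, with up to 4 genes per related list. Further members, hbae3, MYL7, pkz and the levels of 50 CPM and of 1 to 5 CPM were chosen after values were seen. The members and lists were chosen with earlier results of these data known. Steps were tested on simulated counts with counting error only, which hold no spread between libraries. Python 3.11.15 and scipy 1.17.1 were used, and edgeR 4.0.16 and DESeq2 1.42.0 gave size factors for alternatives. Other alternatives were pseudocounts, filters, annotated genes alone and RPKM.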

Additional observations from a re-analysis of the deposited data

How the results depend on the processing

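No paired analysis was possible because a single library stands for each genotype, which also means that none could be left out. The number of members lower by at least 2-fold was 1 in the main setting, 0 when a mean of 5 CPM was required and 0 with deposited RPKM values, since eif2ak2 falls below both filters, and 2 with a 1.5-fold limit. In the other settings run it was 1, and the number higher by at least 2-fold was 0 in all settings. The log2 ratio of eif2ak2 was -2.22, -3.16 with a pseudocount of 0.1 CPM and -1.05 with a pseudocount of 5 CPM. An alternative without a pseudocount, chosen after seeing the data, put irf9, nupr1b, a MKNK2 gene and PABPC4 past 2-fold and left the count of members at 1 lower and 0 higher. The log2 ratio of the summed factors without kinases was -0.03, 0.00044 with DESeq2 size factors and -0.011 with RPKM values. This sum therefore has no direction that holds under every scaling run. The log2 ratio of the summed kinases was -0.24 (ratio 0.844, interval 0.725 to 0.982) and lay between -0.25 and -0.17 under the other 4 scalings. EIF2AK3, with a ratio of 1.16, held 334 of 346 mutant and 244 of 348 wildtype kinase reads. The sum was below 0 through eif2ak2 (11 mutant and 95 wildtype reads) and the unmeasured eif2ak1 (1 and 9), so it gives no shared direction. Of 60 factors, 22 had ratios above 0 in the main setting, 23 with TMM factors and 28 with DESeq2 size factors. The intervals cover counting error only, and the spread between libraries of a group, which limits every difference under 2-fold here, was not measured.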
